A study of Mus musculus with 2 samples.

Results

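The genes examined here are a set of 8 that surround Foxp3 in regulatory T cells, namely Foxp3, Ikzf2, Ikzf4, Il2ra, Il10, Nrp1, Lrrc32 and Gpr83. They were chosen by symbol from the 32285 genes in the count tables, and all 8 were found in both tables. Regulatory T cells are mostly CD4 T cells that hold back other immune cells, and they depend on the transcription factor Foxp3. They consume IL-2 through a receptor that contains CD25, the product of Il2ra, and they can release IL-10 and activate TGF-beta at their surface. After allogeneic hematopoietic cell transplantation (allo-HCT), donor regulatory T cells are known to restrain graft-versus-host disease. Several genes of the set are also used by activated or other T cells, so each gene was followed in Foxp3+ cells, in Foxp3-negative CD4 cells and in CD8 cells.

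The data were scRNA-seq counts of donor T cells from recipient spleens, with 1 library from day +7 and 1 from day +14 after allo-HCT. Recipients were lethally irradiated BALB/c mice that received T cell-depleted C57BL/6 bone marrow and purified splenic C57BL/6 T cells. Cells from pooled spleens were sorted as CD45+, H2Kb+, H2Kd- and TCRβ+, which marks donor-type T cells. The label text of both libraries describes a sort at day +7, and their titles gave the day used here. Both libraries are also named PBS, which the labels do not explain. The labels call the grafted T cells naïve. The study's legends for the sequenced transplants name splenic T cells with no naïve selection, while its methods refer to a model that used naïve splenic T cells. How far the graft was depleted of existing regulatory T cells is therefore unclear. The sort did not select on Foxp3, CD4 or CD8. The ages of the mice were not given in the labels.

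The tables held 7355 barcodes with 87124828 UMIs at day +7 and 8043 barcodes with 84233811 UMIs at day +14. A UMI marks 1 captured RNA molecule. Barcodes with 500 to 7500 detected genes and at most 15% mitochondrial UMIs were kept, which left 7179 and 7794, with a median depth of 9210 and 8144 UMIs. Of these, 156 at day +7 and 92 at day +14 carried erythroid, neutrophil, macrophage or B lineage transcripts with almost no Cd3 transcripts, and they served as non-T background. The libraries shared 20 barcode sequences, 17 of them kept in both, and 0 of these were Foxp3+ in both. Each day is a single library, so no test between days or between classes was possible and no p-value is given. Brackets hold 95% intervals for UMI sums, shares and ratios, which cover counting error only and not differences between mice or libraries. Those for UMI sums, shares of UMIs and ratios count each UMI as independent. They therefore leave out differences between cells as well.

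Foxp3, the defining transcription factor of regulatory T cells, lies on chromosome X at 7573644 to 7595245 on the forward strand (GRCm38, GENCODE M21), where it overlaps the noncoding gene Flicr on the same strand. In the kept barcodes it had 507 UMIs at day +7 and 216 at day +14. The summed level was 5.84 CPM [5.35, 6.38] on day +7 and 2.58 CPM [2.24, 2.94] on day +14, where CPM is UMIs per 1000000 UMIs of the summed cells. Foxp3 was therefore lower on day +14, with a log2 ratio of -1.18 [-1.42, -0.95]. At least 1 Foxp3 UMI was found in 200 of 7179 barcodes at day +7, or 2.79% [2.42, 3.19], and in 90 of 7794 at day +14, or 1.15% [0.930, 1.42]. When every cell was thinned to 4000 UMIs, the shares were 1.66% and 0.718%, after 198 and 969 shallower cells were left out.

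The Foxp3 signal in T cells stood on few molecules per cell. Foxp3+ cells had a median of 2 Foxp3 UMIs on both days and a maximum of 9 at day +7 and 11 at day +14. A single Foxp3 UMI was all that was seen in 33.5% of Foxp3+ cells at day +7 and in 42.2% at day +14. Among non-T barcodes, 0 of 156 carried Foxp3 at day +7, which allows a share of up to 1.92%, at a median depth of 15270.5 UMIs against 9210 over all kept barcodes. The Foxp3 level that 3 UMIs would give in them, 0.917 CPM, lay under the 5.84 CPM of all kept barcodes. At day +14, 0 of 92 non-T barcodes carried Foxp3, which allows up to 3.26%, at a median depth of 5328.5 UMIs. The level that 3 UMIs would give, 4.65 CPM, lay above that over all kept barcodes, so the day +14 background was not resolved at this depth.

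Most Foxp3+ cells at day +7 carried Cd8 transcripts and no Cd4 transcript. Cells were called CD4 with at least 1 Cd4 UMI and none of Cd8a or Cd8b1, and CD8 with the reverse. At day +7 the 200 Foxp3+ cells comprised 143 CD8 cells, 20 CD4 cells, 15 with both and 22 with neither. At day +14 the 90 Foxp3+ cells comprised 35 CD8 cells, 14 CD4 cells, 16 with both and 25 with neither. CD8 cells thus made up 71.5% [64.7, 77.6] of Foxp3+ cells at day +7, in a library where CD8 cells far outnumbered CD4 cells.

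The share of Foxp3+ cells was also taken within each lineage. Among CD4 cells it was 4.17% [2.56, 6.36] of 480 at day +7 and 1.97% [1.08, 3.28] of 711 at day +14. Among CD8 cells it was 2.38% [2.01, 2.80] of 6003 at day +7 and 0.581% [0.405, 0.807] of 6025 at day +14. The CD4 cells were shallower at day +14, with a median depth of 5325 UMIs against 8305 at day +7, whereas the CD8 cells had 8622 and 9303. With lineage taken from all UMIs and Foxp3 from cells thinned to 4000 UMIs, the CD4 share was 2.79% [1.49, 4.72] and 2.35% [1.22, 4.07], with intervals that overlapped widely. The CD8 share was then 1.34% [1.06, 1.67] and 0.308% [0.179, 0.492]. The lower Foxp3 share at day +14 was thus outside the counting error in CD8 cells and within it in CD4 cells after thinning. Cells with neither Cd4 nor Cd8 transcripts had a thinned share of 5% [2.76, 8.25] and 4.55% [2.29, 7.99], and these intervals overlapped those of CD4 cells on both days. Foxp3+ cells were deeper than Foxp3-negative T cells, with a median of 11286 against 9117 UMIs at day +7 and of 9034 against 8170.5 at day +14.

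**Figure D1:**
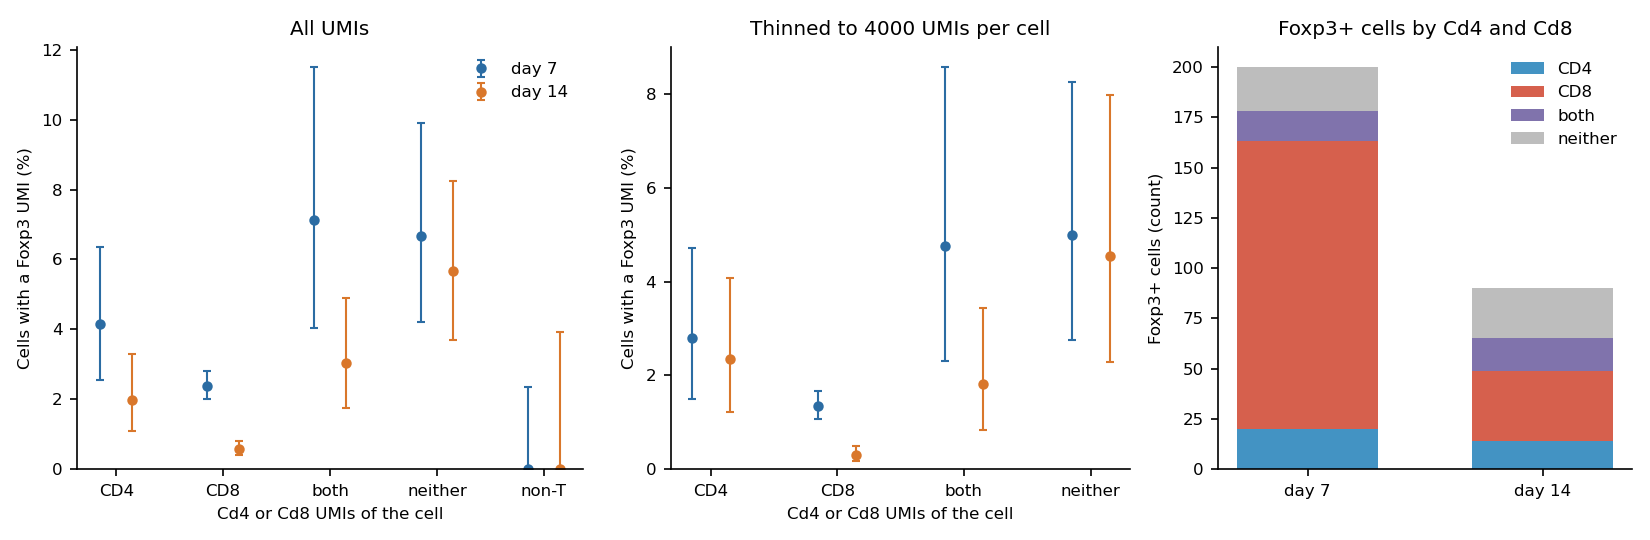
Share of cells with a Foxp3 UMI by lineage with all UMIs (left) and after thinning to 4000 UMIs per cell (middle), in percent with 95% exact binomial intervals, and the number of Foxp3+ cells of each lineage by day (right). In CD8 cells the thinned share is 1.34% at day +7 and 0.308% at day +14, while the CD4 intervals overlap.

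The CD8 identity of these Foxp3+ cells was examined with further lineage genes, chosen after the class counts had been seen. Foxp3+ CD8 cells had a median of 11 Cd8 UMIs at day +7 and 9 at day +14, against 9 and 10 in Foxp3-negative CD8 cells. Runx3, which maintains the CD8 program, was at 190 CPM in Foxp3+ CD8 cells and 227 CPM in Foxp3-negative CD8 cells at day +7, and at 254 and 262 CPM at day +14. Cd40lg, a ligand of helper cells, was at 1.75 and 1.94 CPM in Foxp3+ CD8 cells at day +7 and day +14, from 4 UMIs and 1 UMI, against 96.0 and 81.8 CPM in Foxp3-negative CD4 cells. Zbtb7b, the CD4 lineage factor ThPOK, was at 15.7 CPM in Foxp3+ CD8 cells and 15.8 CPM in Foxp3-negative CD8 cells at day +7, and at 13.5 [5.45, 27.9] and 5.52 CPM at day +14. Zbtb7b was at 40.8 and 32.9 CPM in Foxp3-negative CD4 cells, so its level in Foxp3+ CD8 cells lay below that level on both days. In the few Foxp3+ CD4 cells, Cd40lg was at 63.6 CPM [33.9, 109] at day +7 and had 0 UMIs at day +14. Zbtb7b was at 34.2 CPM [13.8, 70.5] and 43.8 CPM [11.9, 112] there, and these intervals overlapped those of Foxp3+ CD8 cells on both days. Neither gene thus separated Foxp3+ CD8 from Foxp3+ CD4 cells at day +14. When at least 3, 5 or 10 Cd8 UMIs were required, the Foxp3+ share of CD8 cells was 2.44%, 2.64% and 3.21% at day +7 and 0.536%, 0.580% and 0.527% at day +14.

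Barcodes that hold more than 1 cell bear on this class and were scored with Scrublet, whose own threshold marked 0 barcodes at day +7 and 1 at day +14 and so did not work as a caller. The 412 and 486 highest scores were therefore considered, at an assumed 0.8% per 1000 barcodes. They included 7.69% [3.90, 13.3] of Foxp3+ CD8 cells and 5.34% [4.78, 5.95] of Foxp3-negative CD8 cells at day +7. At day +14 they included 8 of 35 Foxp3+ CD8 cells, or 22.9% [10.4, 40.1], against 5.21% [4.66, 5.80]. Foxp3+ cells with both Cd4 and Cd8 transcripts were among them in 6 of 15 and 3 of 16 cases, and Foxp3+ CD4 cells in 0 of 20 and 0 of 14. The part of doublets in the day +14 Foxp3+ CD8 values was not tested beyond leaving these barcodes out. A list of 5 neutrophil genes, the most abundant of the non-T lists over all kept barcodes, summed to 263 and 42.6 CPM in Foxp3+ CD8 cells, 575 and 676 CPM in Foxp3-negative CD8 cells, 34.2 and 54.8 CPM in Foxp3+ CD4 cells and 16.6 and 909 CPM in Foxp3-negative CD4 cells on day +7 and day +14. All 5 genes were detected in each of these classes except Foxp3+ CD4, where 3 were, and their part in the results was not tested.

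The sequence just upstream is shown for Foxp3 and Il2ra, since both were lower on day +14 over all kept barcodes, as given above and below. RefSeq windows on GRCm38.p6 were held for 4 of the 8 members. For Foxp3, only the 141 bases up to the next annotated Foxp3 exon are printed, from chrX:7579426-7579566 on the forward strand, ending 109 bases before the RefSeq start. That stretch lies in an intron of the longest annotated Foxp3 transcript and within an exon of Flicr. For Il2ra, the 250 bases before the start are printed, from chr2:11642542-11642791 on the forward strand. Capitals mark matches, on either strand, to 5 motifs that were searched: GGAAA (NFAT), TTCNNNGAA (STAT5), TGTGGT (Runx), TGTTTAC (forkhead) and the NF-kB motif, which is GGG and CC with any 5 bases between them.
Foxp3: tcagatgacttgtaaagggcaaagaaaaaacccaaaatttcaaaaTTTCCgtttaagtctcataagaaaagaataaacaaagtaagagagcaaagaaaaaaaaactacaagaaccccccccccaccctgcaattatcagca
Il2ra: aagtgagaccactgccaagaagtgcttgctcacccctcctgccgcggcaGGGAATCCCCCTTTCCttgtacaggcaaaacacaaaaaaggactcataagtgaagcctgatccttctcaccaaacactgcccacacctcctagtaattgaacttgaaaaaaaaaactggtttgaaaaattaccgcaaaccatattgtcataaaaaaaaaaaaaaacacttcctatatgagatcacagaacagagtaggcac
The Foxp3 stretch held 1 match to GGAAA, on the reverse strand, and 38.2% of 32851 promoter windows hold that motif in the same length. The Il2ra stretch held 1 match to GGAAA, which 55.6% of windows hold, and 3 overlapping placements of the NF-kB motif, which 45.8% hold. The remaining motifs had 0 matches in both stretches, where between 1.91% and 25.9% of windows hold them at the Foxp3 length and between 3.17% and 14.0% at the Il2ra length. These matches describe the letters only, and both motifs that matched are common in promoters.

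Ikzf2 encodes Helios, an Ikaros family transcription factor of many regulatory T cells, and lies on chromosome 1 at 69531214 to 69687245 on the reverse strand, where it overlaps the noncoding genes Gm28112 and Gm29112. At day +7 its level was 416 CPM [332, 514] in Foxp3+ CD4 cells and 28.6 CPM [24.0, 33.9] in Foxp3-negative CD4 cells. At day +14 it was 1052 CPM [852, 1285] and 58.9 CPM [52.4, 66.0]. The excess in Foxp3+ CD4 cells was 3.86 [3.45, 4.26] on the log2 scale at day +7 and 4.16 [3.81, 4.49] at day +14, and neither pair of intervals overlapped. It did not rest on a single cell, since without the cell with the most Ikzf2 UMIs the Foxp3+ CD4 level was 319 CPM [243, 412] on day +7 and 985 CPM [780, 1228] on day +14. Ikzf2 was seen in 16 of 20 Foxp3+ CD4 cells at day +7 and in 14 of 14 at day +14.

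In Foxp3+ CD8 cells Ikzf2 was lower than in Foxp3+ CD4 cells but higher than in other CD8 cells. Its level was 119 CPM [105, 134] in Foxp3+ CD8 cells and 15.3 CPM [14.4, 16.2] in Foxp3-negative CD8 cells at day +7, a log2 ratio of 2.96 [2.77, 3.16]. At day +14 the levels were 290 CPM [246, 341] and 85.0 CPM [82.8, 87.3], a log2 ratio of 1.77 [1.53, 2.01]. Foxp3+ CD8 cells lay below Foxp3+ CD4 cells by log2 ratios of -1.80 [-2.16, -1.43] and -1.86 [-2.24, -1.47]. Foxp3+ cells without Cd4 or Cd8 transcripts were at 633 CPM [535, 743] and 1005 CPM [858, 1170], above the interval of Foxp3+ CD4 cells at day +7 and within it at day +14.

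Ikzf2 was not restricted to Foxp3+ cells. Foxp3+ cells held 28.5% [26.5, 30.5] of all Ikzf2 UMIs at day +7 and 7.81% [7.20, 8.45] at day +14, and Foxp3-negative CD8 cells held 54.9% and 77.6%. Of the UMIs of all genes, Foxp3+ cells held 3.53% and 1.27%, and Foxp3-negative CD8 cells held 80.0% and 79.1%. In Foxp3-negative CD8 cells the level was 5.57 times higher at day +14, a log2 ratio of 2.48 [2.38, 2.57], and the thinned share of cells with an Ikzf2 UMI was 5.47% at day +7 and 23.3% at day +14. Foxp3-negative CD4 cells had a log2 ratio of 1.04 [0.74, 1.35], with thinned shares of 9.64% and 17.1%. All Foxp3+ cells together had 1.57 [1.40, 1.74], with thinned shares of 41.0% and 74.4%. As a result, Foxp3-negative CD4 cells lay above CD8 cells at day +7, with a log2 ratio of 0.91 [0.64, 1.16], and below them at day +14, with -0.53 [-0.70, -0.36]. Non-T barcodes had 3 Ikzf2 UMIs at day +7 and 0 at day +14.

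**Figure D2:**
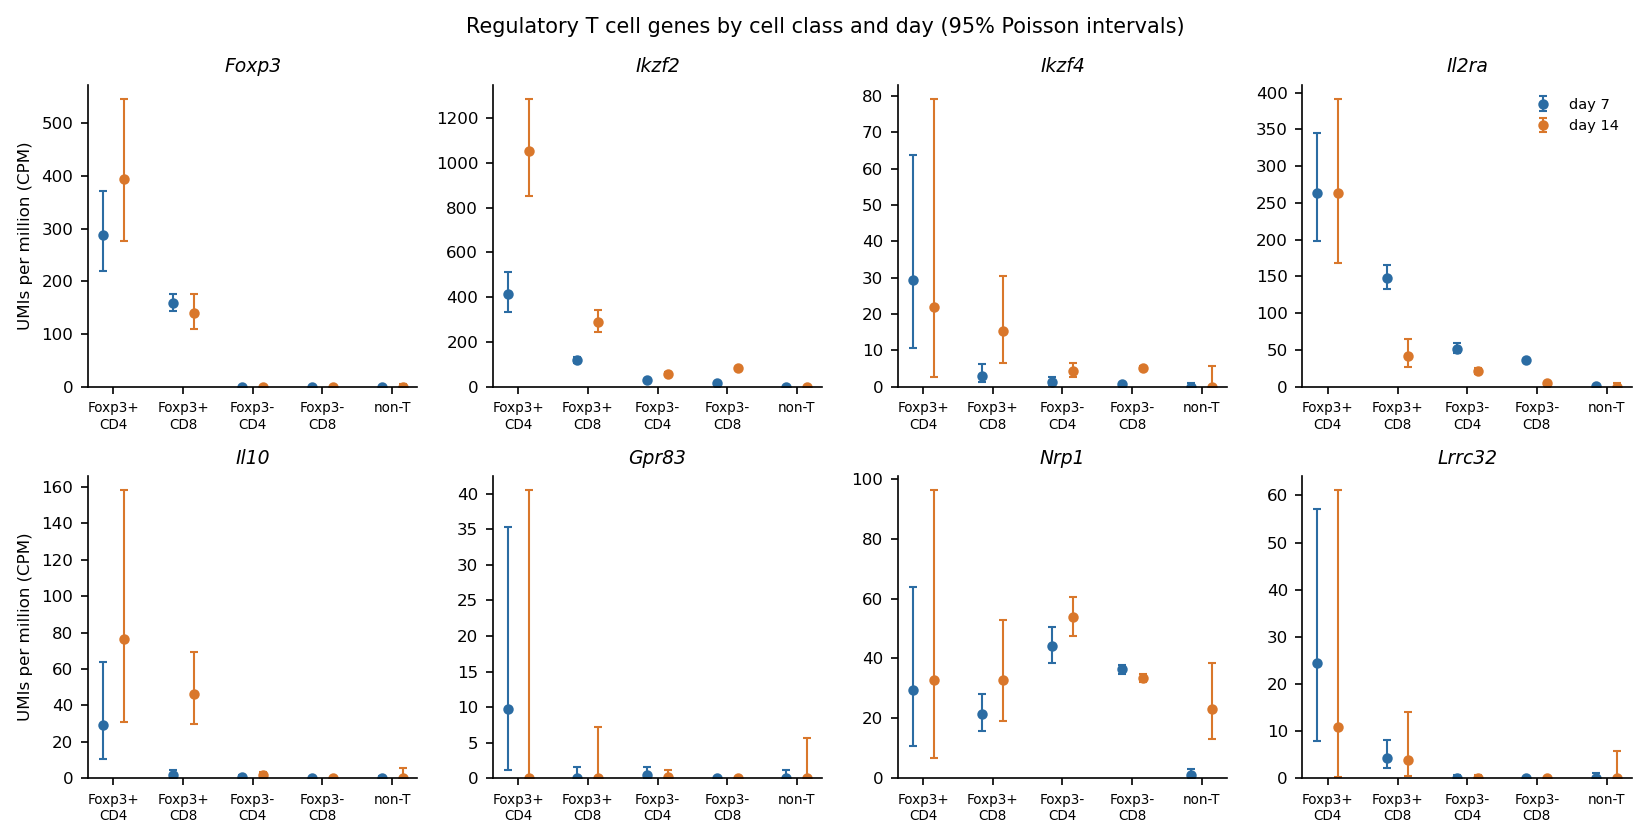
Level of each of the 8 genes in CPM, from UMIs summed over Foxp3+ CD4, Foxp3+ CD8, Foxp3-negative CD4, Foxp3-negative CD8 and non-T cells, with day +7 in blue, day +14 in orange and 95% exact Poisson intervals. Ikzf2 stands highest in Foxp3+ CD4 cells, at 416 and 1052 CPM, while Nrp1 lies between 21.4 and 53.8 CPM in all 4 T cell classes.

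Ikzf4 encodes Eos, an Ikaros family partner of Foxp3, and lies on chromosome 10 at 128630843 to 128645991 on the reverse strand. It was sparse, with 87 UMIs over the kept barcodes at day +7 and 444 at day +14. Over all Foxp3+ cells its level was 7.18 CPM [4.50, 10.9] on day +7 and 29.2 CPM [19.8, 41.5] on day +14, against 0.808 CPM [0.624, 1.03] and 5.03 CPM over Foxp3-negative T cells. Foxp3+ CD4 cells held 6 Ikzf4 UMIs at day +7 and 2 at day +14, so the log2 ratio over Foxp3-negative CD4 cells was 4.54 [2.64, 6.44] and 2.33 [-0.80, 4.35], and the second was not resolved. The first did not hold after thinning to 4000 UMIs, where 0 of 20 Foxp3+ CD4 cells carried Ikzf4 and the ratio on the log2(CPM + 1) scale was -2.01. In Foxp3-negative CD8 cells Ikzf4 was at 0.764 CPM [0.572, 0.999] on day +7 and 5.13 CPM [4.60, 5.70] on day +14, a log2 ratio of 2.75 [2.33, 3.19]. Those CD8 cells held 60.9% of Ikzf4 UMIs at day +7 and 76.6% at day +14. Ikzf4 and Ikzf2 were thus both higher on day +14 in Foxp3-negative CD8 cells, in Foxp3-negative CD4 cells and in Foxp3+ cells as a whole. The Ikzf4 log2 ratio was 1.79 [0.44, 3.38] in Foxp3-negative CD4 cells and 2.02 [1.19, 2.88] in all Foxp3+ cells. Within Foxp3+ CD4 and CD8 cells it was -0.42 [-3.76, 2.06] and 2.34 [0.68, 4.04], the latter 1.91 [-0.14, 3.88] without the top cells. In Foxp3+ cells with both and with neither transcript it was 3.21 [0.31, 8.68] and 1.20 [-0.18, 2.68]. The part of the changed class mix in the pooled ratio was not tested.

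Il2ra encodes CD25, the subunit that gives the IL-2 receptor its high affinity, and lies on chromosome 2 at 11642807 to 11693193 on the forward strand. In Foxp3+ CD4 cells it was at 264 CPM [198, 345] on day +7 and 263 CPM [169, 391] on day +14, a log2 ratio of -0.01 [-0.76, 0.71]. In Foxp3-negative CD4 cells it was at 52.0 CPM [45.7, 58.9] and 21.2 CPM [17.4, 25.7], and in Foxp3-negative CD8 cells at 36.3 CPM [34.9, 37.8] and 5.11 CPM [4.58, 5.69]. Il2ra was lower on day +14 in both Foxp3-negative classes, with log2 ratios of -1.29 [-1.63, -0.96] in CD4 and -2.83 [-3.00, -2.66] in CD8 cells. No day difference was resolved in Foxp3+ CD4 cells, and the interval allows a ratio of up to 0.76 below or 0.71 above 0. Whether the classes differed in their day ratio was not tested.

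Foxp3+ CD8 cells lay below Foxp3+ CD4 cells in Il2ra on both days. They were at 148 CPM [133, 165] on day +7 and 42.6 CPM [26.7, 64.5] on day +14, a log2 ratio of -1.80 [-2.49, -1.18]. Without the cell with the most Il2ra UMIs on each day it was -2.15 [-2.97, -1.42]. Of these cells, 31.5% at day +7 and 54.3% at day +14 had a single Foxp3 UMI, and 3.50% and 14.3% a single Cd8 UMI. The day ratio of this class was not repeated under the other alternatives. Against Foxp3-negative CD8 cells they were higher on both days, by 2.03 [1.86, 2.19] and 3.06 [2.36, 3.68] on the log2 scale. Below Foxp3+ CD4 cells they lay by -0.83 [-1.25, -0.39] at day +7 and -2.63 [-3.53, -1.73] at day +14. After thinning, an Il2ra UMI was seen in 41.0% of all Foxp3+ cells at day +7 and 20.5% at day +14, in 14.3% and 5.23% of Foxp3-negative CD4 cells, and in 9.32% and 1.64% of Foxp3-negative CD8 cells.

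Il2ra was also lower over the whole library. Over all kept barcodes it had 3522 UMIs at day +7 and 695 at day +14, or 40.6 CPM [39.3, 42.0] and 8.29 CPM [7.69, 8.93], a log2 ratio of -2.29 [-2.41, -2.17]. Foxp3-negative CD8 cells held 71.6% of these UMIs at day +7 and 48.8% at day +14, whereas Foxp3+ cells held 13.5% [12.4, 14.7] and 17.0%. Non-T barcodes had 2 UMIs and 0 UMIs.

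Il10 encodes the suppressive cytokine IL-10 and lies on chromosome 1 at 131019845 to 131024974 on the forward strand. It had 47 UMIs in 38 kept barcodes at day +7 and 74 UMIs in 37 at day +14. Over all Foxp3+ cells its level was 5.55 CPM [3.23, 8.89] on day +7 and 39.6 CPM [28.5, 53.5] on day +14, against 0.373 and 0.390 CPM over Foxp3-negative T cells. The log2 ratio of day +14 over day +7 in Foxp3+ cells was 2.83 [1.99, 3.74], and without the cell with the most Il10 UMIs on each day it was 2.38 [1.34, 3.49]. Within Foxp3+ classes the ratio was 1.39 [-0.41, 3.24] in CD4 cells, 0.62 [-1.94, 3.39] with both and 1.31 [-0.67, 3.53] with neither. Each of these includes 0, and the ratio in Foxp3+ CD8 cells rests on 1 cell, as given below. CD8 cells made up 71.5% and 38.9% of Foxp3+ cells, and the part of that mix in the pooled ratio was not tested. Few cells carried the transcript, 11 of 200 Foxp3+ cells at day +7 and 12 of 90 at day +14. In Foxp3+ CD4 cells there were 6 UMIs in 3 cells and 7 UMIs in 3 cells, or 29.3 CPM [10.8, 63.9] and 76.7 CPM [30.9, 158].

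A single cell carried most of the Il10 of Foxp3+ CD8 cells at day +14. That class had 24 UMIs in 4 cells, 19 of them in 1 cell, and its level was 46.4 CPM [29.8, 69.1] with that cell and 10.2 CPM [3.31, 23.8] without it. At day +7 all 4 UMIs of the class were in 1 cell. After thinning to 4000 UMIs the day +14 ratio over Foxp3-negative CD8 cells was -0.54 on the log2(CPM + 1) scale, so the excess of this class did not hold. Foxp3-negative CD8 cells had 21 UMIs and 11 UMIs, or 0.303 CPM [0.187, 0.463] and 0.166 CPM [0.0828, 0.297]. Foxp3+ cells as a whole held 36.2% [22.7, 51.5] of Il10 UMIs at day +7 and 56.8% [44.7, 68.2] at day +14.

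Nrp1 encodes neuropilin-1, a surface receptor often used to mark thymus-derived regulatory T cells, and lies on chromosome 8 at 128358604 to 128503363 on the forward strand. It did not follow Foxp3 in these cells. At day +7 it was at 29.3 CPM [10.8, 63.9] in Foxp3+ CD4, 21.4 CPM [15.8, 28.3] in Foxp3+ CD8, 44.2 CPM [38.4, 50.6] in Foxp3-negative CD4 and 36.4 CPM [35.0, 37.8] in Foxp3-negative CD8 cells. At day +14 the same classes were at 32.9 CPM [6.78, 96.1], 32.9 CPM [19.2, 52.7], 53.8 CPM [47.6, 60.6] and 33.4 CPM [32.0, 34.8]. Foxp3+ CD8 cells lay below Foxp3-negative CD8 cells at day +7, with a log2 ratio of -0.77 [-1.21, -0.36], and not beyond counting error at day +14, with -0.02 [-0.80, 0.66]. Foxp3+ CD4 cells had 6 and 3 Nrp1 UMIs, and their ratios over Foxp3-negative CD4 cells, -0.59 [-2.05, 0.56] and -0.71 [-3.00, 0.85], were not resolved.

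Almost all Nrp1 therefore lay outside Foxp3+ cells, which held 2.12% [1.64, 2.70] of its UMIs at day +7 and 1.12% [0.779, 1.57] at day +14. Those cells held 3.53% and 1.27% of the UMIs of all genes. Over all kept barcodes Nrp1 was at 35.3 and 36.1 CPM, a log2 ratio of 0.03 [-0.04, 0.11], which became -0.17 when libraries were scaled by the median gene ratio. Foxp3-negative CD4 cells lay above Foxp3-negative CD8 cells by 0.28 [0.07, 0.48] on the log2 scale at day +7 and by 0.69 [0.50, 0.87] at day +14. In Foxp3-negative CD4 cells thinned to 4000 UMIs, Il2ra was seen in 17 of 73 Nrp1+ cells and in 12.6% of the others at day +7, and in 13 of 91 Nrp1+ cells and 3.20% of the others at day +14. Non-T barcodes carried 4 Nrp1 UMIs at day +7 and 15 at day +14, the latter all in the neutrophil class.

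Lrrc32 encodes GARP, which docks latent TGF-beta at the cell surface, and lies on chromosome 7 at 98489283 to 98502181 on the forward strand. It was rare, and with all UMIs most of it lay in Foxp3+ cells. Of its 20 UMIs at day +7, 19 were in Foxp3+ cells, and of its 11 UMIs at day +14, 9 were, or 95% [75.1, 99.9] and 81.8% [48.2, 97.7]. They came from 16 of 200 and 8 of 90 Foxp3+ cells. Foxp3-negative CD4 cells had 0 Lrrc32 UMIs on both days. Foxp3+ CD4 cells had 5 UMIs at day +7, 3 of them in 1 cell, and 1 UMI at day +14. The 5 UMIs gave 24.5 CPM, which is at least 38.7-fold higher than 3 UMIs over the Foxp3-negative CD4 cells would give. Across the alternatives this day +7 ratio ranged from 0 to 4.85 on the log2(CPM + 1) scale. Foxp3-negative CD8 cells had 1 UMI on each day. Foxp3+ CD8 cells had 10 UMIs at day +7, a log2 ratio of 8.24 [5.43, 13.7], and 2 UMIs at day +14, too few for a ratio. On the log2(CPM + 1) scale the day +7 value was 2.40, and it was -0.06 when counts and classes came from 4000 UMIs per cell. With classes from all UMIs, thinning left Lrrc32 in 3 of 195 Foxp3+ and 0 of 6659 Foxp3-negative T cells at day +7.

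Gpr83 encodes a G protein-coupled receptor found in regulatory T cells and lies on chromosome 9 at 14860210 to 14870789 on the forward strand. It had 6 UMIs in 5 kept barcodes at day +7 and 2 UMIs in 2 at day +14. Foxp3+ cells held 2 of the 6 UMIs, both in 1 CD4 cell, and 0 of the 2. CD8 cells, with or without Foxp3, had 0 UMIs on both days. At this depth Gpr83 could not be placed in or outside Foxp3+ cells.

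**Figure D3:**
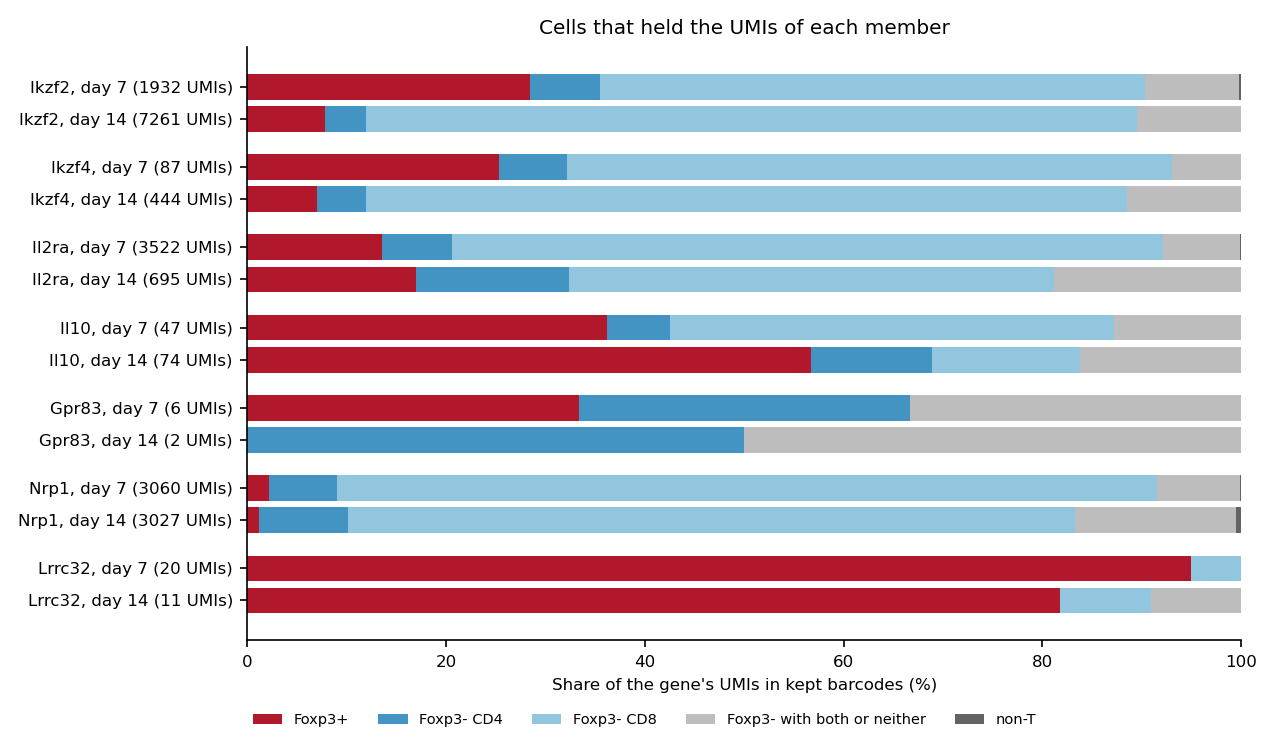
Percent of the UMIs of each of the 7 genes other than Foxp3 that lie in Foxp3+ cells, Foxp3-negative CD4 cells, CD8 cells, other Foxp3-negative T cells and non-T barcodes, by day. Foxp3+ cells hold 95% and 81.8% of Lrrc32 UMIs and 2.12% and 1.12% of Nrp1 UMIs, against 3.53% and 1.27% of the UMIs of all genes.

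Taking the 7 genes other than Foxp3, 6 had more UMIs outside Foxp3+ cells than in them at day +7 and 5 at day +14. The exception on both days was Lrrc32, joined at day +14 by Il10. Foxp3+ cells held only 3.53% and 1.27% of the UMIs of all genes, and the same count was not made over all genes. At a mean of at least 10 CPM over both classes, 6 of the 7 genes could be compared between Foxp3+ and Foxp3-negative CD4 cells at day +7, and 5 of them (Ikzf2, Ikzf4, Il2ra, Il10 and Lrrc32) were at least 2-fold higher on the log2(CPM + 1) scale, where 7.42% of 6658 genes were. At day +14, 5 could be compared and 4 (Ikzf2, Ikzf4, Il2ra and Il10) were at least 2-fold higher, where 15.7% of 7228 genes were. Ikzf4 and Il10 on both days and Lrrc32 at day +7 reached 10 CPM through the Foxp3+ class alone, which sums only 20 and 14 cells, so they had to be called and the counts are a description only. Ikzf2 and Il2ra were above 10 CPM in both classes on both days. With a mean of at least 50 CPM in place of 10, chosen after seeing the data, Ikzf2 and Il2ra were at least 2-fold higher on each day, where 3.92% and 10.7% of genes were. Ikzf2 at day +7 and Il2ra at day +14 reached 50 CPM through the Foxp3+ class alone and had to be called. They were at 28.6 and 21.2 CPM in Foxp3-negative CD4 cells.

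Between Foxp3+ and Foxp3-negative CD8 cells, 3 of the 7 genes could be compared at day +7 and 2 (Ikzf2 and Il2ra) were at least 2-fold higher, where 1.19% of 6615 genes were. At day +14, 5 could be compared and 4 (Ikzf2, Ikzf4, Il2ra and Il10) were at least 2-fold higher, where 2% of 7085 genes were. Of these 4, Ikzf4, Il2ra and Il10 reached the filter through the Foxp3+ class alone, Il10 would not have reached it without its top cell, and Il10 at 4000 UMIs and Ikzf4 at 2000 UMIs changed sign after thinning. Nrp1 was compared in all 4 of these contrasts and was past 2-fold in none of them. Foxp3-negative CD4 and CD8 cells differed by 2-fold or more in 0 of the 3 genes that could be compared at day +7, where 2.19% of genes did, and in 1 of 3 at day +14, Il2ra, where 3.37% did.

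Between days, 3 of the 8 genes reached a mean of 10 CPM over all kept barcodes. Ikzf2 was at least 2-fold higher and Il2ra at least 2-fold lower at day +14, where 3.11% of 6919 genes were past 2-fold in either direction and the median log2 ratio of all these genes was 0.18. With a mean of at least 50 CPM, Ikzf2 alone was past 2-fold, where 2.58% of genes were. At 22.3 and 86.6 CPM, it reached 50 CPM through day +14 alone and had to be called. Il2ra reached 10 CPM through day +7 alone over all kept barcodes and in Foxp3-negative CD8 cells. The same 2 genes were past 2-fold in Foxp3-negative CD8 cells, where 3.27% of genes were, and in Foxp3-negative CD4 cells, where 4.88% were. In all Foxp3+ cells together, 3 of 5 genes (Ikzf2, Ikzf4 and Il10) were at least 2-fold higher and none lower, where 6.06% of genes were past 2-fold, though Ikzf4 and Il10 reached 10 CPM through day +14 alone. These values pool Foxp3+ classes whose mix changed between days. In Foxp3+ CD4 cells 3 of 6 were past 2-fold, Ikzf2 and Il10 higher and Lrrc32 lower, where 37.8% of genes were. With that background, and with intervals for Il10 and Lrrc32 that include 0, only the Ikzf2 ratio of 1.34 [0.90, 1.78] among these exceeded counting error. In Foxp3+ CD8 cells 3 of 4 were past 2-fold, Ikzf2 and Il10 higher and Il2ra lower, where 8.12% of genes were. The Il10 call there rests on 1 cell, without which 0 UMIs were left at day +7 and 5 at day +14.

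**Figure D4:**
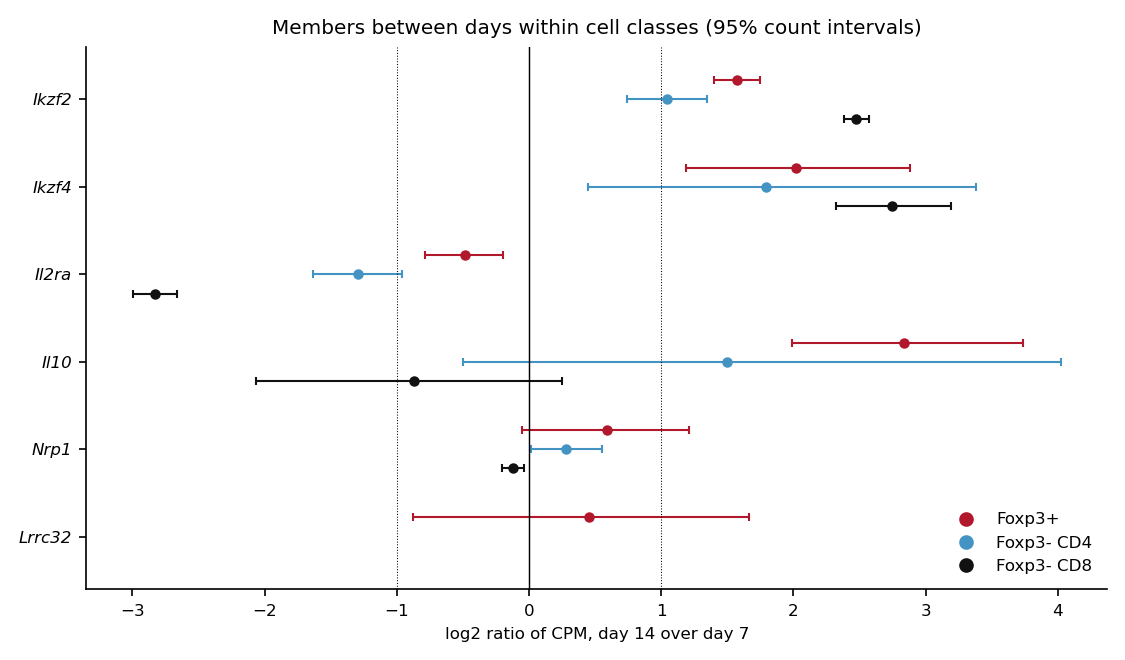
Log2 ratio of CPM, day +14 over day +7, for 6 genes of the set within all Foxp3+ cells (red), Foxp3-negative CD4 cells (blue) and Foxp3-negative CD8 cells (black), with 95% intervals from the UMI counts and dotted lines at 2-fold. Ikzf2 lies right of 0 in all 3 classes, at 1.57, 1.04 and 2.48, and Il2ra lies left of 0, at -0.49, -1.29 and -2.83. The Foxp3+ value pools classes whose mix changed, with CD8 cells at 71.5% of Foxp3+ cells on day +7 and 38.9% on day +14.

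The genes were also counted together in single cells. After thinning to 4000 UMIs, at least 2 of the 7 genes other than Foxp3 were seen in 22.1% [16.4, 28.5] of 195 Foxp3+ cells at day +7 and in 44.9% [33.6, 56.6] of 78 at day +14. The same was true of 5.38% [3.48, 7.90] and 6.24% [4.28, 8.74] of Foxp3-negative CD4 cells and of 2.67% [2.27, 3.12] and 3.93% [3.43, 4.48] of Foxp3-negative CD8 cells. Non-T barcodes had 0 such cells on both days. With all UMIs the shares of Foxp3+ cells were 63.0% and 65.6%, so the day difference in Foxp3+ cells was seen only after thinning. The thinned share was 35% [15.4, 59.2] and 53.8% [25.1, 80.8] in Foxp3+ CD4 cells and 15.1% [9.60, 22.2] and 27.3% [13.3, 45.5] in Foxp3+ CD8 cells, with intervals that overlapped between days in each class. CD8 cells made up 71.5% and 38.9% of Foxp3+ cells, and the part of that mix in the pooled difference was not tested. Within thinned Foxp3+ cells, Il2ra was seen in 43.8% of Ikzf2+ and 39.1% of Ikzf2-negative cells at day +7, and in 15 of 58 and 1 of 20 at day +14.

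Proliferation was compared across the same classes. A cell was counted as cycling with a UMI of at least 3 of 10 proliferation genes after thinning. The shares were 40% [19.1, 63.9] of 20 Foxp3+ CD4 cells and 45.7% [41.0, 50.5] of Foxp3-negative CD4 cells at day +7, and 23.1% [5.04, 53.8] of 13 and 42.9% [38.5, 47.3] at day +14. Foxp3+ CD8 cells had 58.3% [49.6, 66.6] and 75.8% [57.7, 88.9], against 63.4% and 66.9% of Foxp3-negative CD8 cells, and the intervals of Foxp3+ CD4 cells were too wide to place them below these at day +7. Neutrophil-class barcodes reached 27.3% and 37.2% by the same count, and the part of free RNA in these shares was not tested. At day +14 an Ikzf2 UMI was seen in 28 of 30 Foxp3+ cells outside the cycle and in 30 of 48 cycling ones, or 93.3% [77.9, 99.2] and 62.5% [47.4, 76.0], and at day +7 in 49.4% [38.4, 60.5] and 34.5% [25.7, 44.2].

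Other genes of regulatory T cells were described from lists. Of 20 surface and effector genes, 15 could be compared between Foxp3+ and Foxp3-negative CD4 cells at day +7 and 13 were at least 2-fold higher, where 7.42% of all genes were, with a median log2 ratio of 1.79 against 0.04 over all genes. At day +14, 18 could be compared and 15 were at least 2-fold higher, where 15.7% of all genes were, with a median of 2.09 against 0.01. The list genes that could be compared included 0 that were 2-fold lower on either day, where 7.22% and 13.8% of all genes were. Some reached 10 CPM through the Foxp3+ class alone and had to be called, such as Itgae at 44.0 and 0.631 CPM on day +7. The counts and medians of this list are therefore a description only. Ctla4, an inhibitory receptor that regulatory T cells use constantly, was at 259 and 46.5 CPM in Foxp3+ and Foxp3-negative CD4 cells at day +7 and at 987 and 83.4 CPM at day +14. Klrg1, a lectin-type receptor of mature effector cells, was at 254 and 30.3 CPM and at 800 and 22.6 CPM. Tnfrsf9, the costimulatory receptor 4-1BB, was at 440 and 60.8 CPM and at 724 and 92.3 CPM. Itgae, the integrin chain CD103, had 9 and 7 UMIs in Foxp3+ CD4 cells and 3 UMIs on each day in Foxp3-negative CD4 cells.

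The same list was compared in CD8 cells. Against Foxp3-negative CD8 cells, 8 of 12 genes were at least 2-fold higher at day +7, with a median of 1.24, and 6 of 12 at day +14, with a median of 1.32. Over all genes 1.19% and 2% were at least 2-fold higher, with medians of 0.03 and 0.07. Here too a gene could reach 10 CPM through the Foxp3+ class alone, so these counts and medians are a description only. Tnfrsf4, the costimulatory receptor OX40, was at 385 and 39.7 CPM at day +7 and 478 and 65.6 CPM at day +14. Ctla4 was at 213 and 44.5 CPM, and at 275 and 42.9 CPM. Izumo1r, the folate receptor FR4, was at 16.6 and 3.13 CPM, and at 63.9 and 19.3 CPM. At day +7 it lay under a mean of 10 CPM and so was not among the 8 genes.

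**Figure D5:**
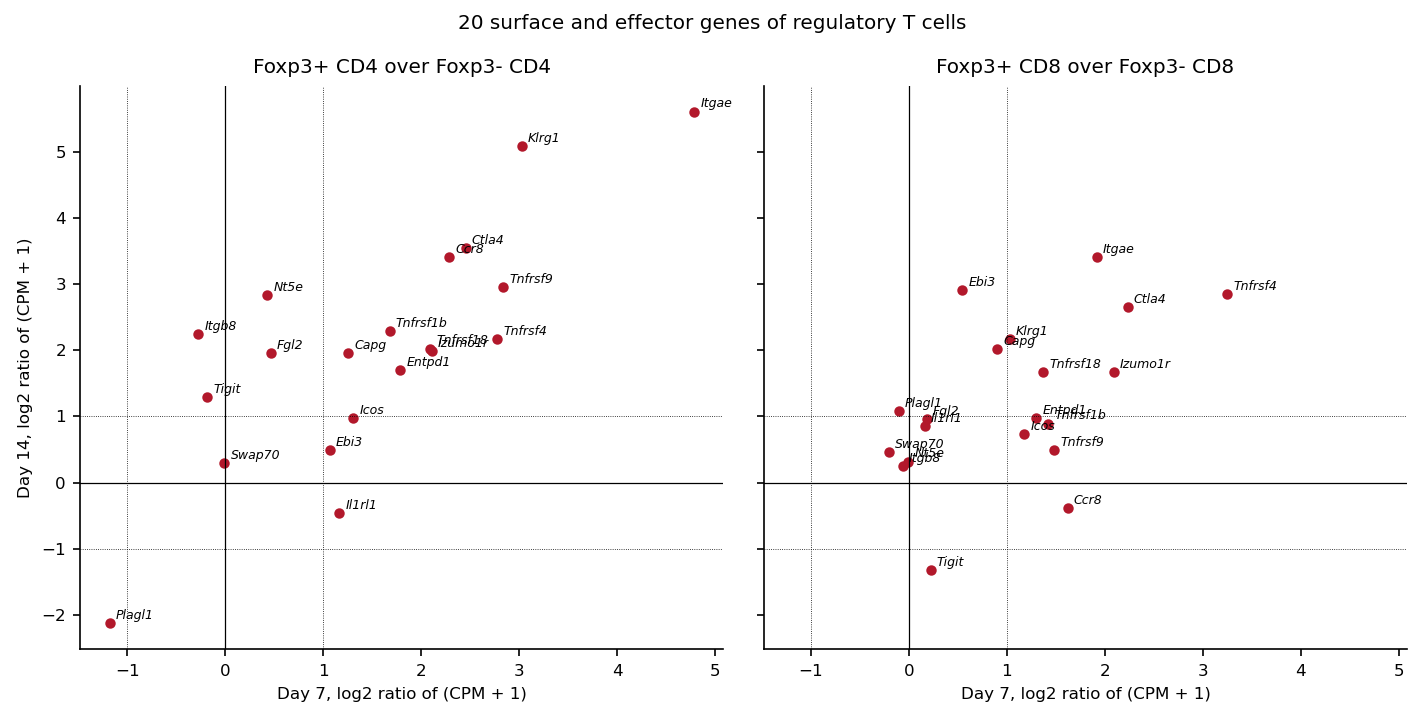
Log2 ratio on the log2(CPM + 1) scale of Foxp3+ over Foxp3-negative cells for the 20 genes of the surface and effector list, those under a mean of 10 CPM included, day +7 on the x axis against day +14 on the y axis, in CD4 cells (left) and CD8 cells (right). Klrg1 in CD4 cells lies at 3.03 and 5.08, and Tnfrsf4 in CD8 cells at 3.25 and 2.85.

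Further lists were compared between Foxp3+ and Foxp3-negative CD4 cells, where 7.42% of all genes were at least 2-fold higher and 7.22% lower at day +7, and 15.7% and 13.8% at day +14. In these lists too, some genes reached 10 CPM through the Foxp3+ class alone, such as Nfil3 at day +7 and Socs2 at day +14. The counts and medians of the lists are therefore a description only. Of 14 Foxp3 regulators and partners, 2 of 12 were at least 2-fold higher on each day and none lower, with medians of 0.02 and 0.24, and the day +14 count was near the share of all genes. Foxo1, a factor that restrains effector differentiation, was at 68.5 and 30.5 CPM at day +7 and at 76.7 and 33.3 CPM at day +14, with the interval of the second ratio including 0. Ikzf3, the Ikaros family factor Aiolos, was at 117 and 30.5 CPM and at 186 and 93.1 CPM. Gata3 was at 186 and 105 CPM and at 121 and 67.9 CPM, with the interval of the day +14 ratio including 0. Bach2 had 0 UMIs in Foxp3+ CD4 cells, which allows up to 14.7 and 32.9 CPM, so its 2.10 and 7.14 CPM in Foxp3-negative CD4 cells gave no resolved difference.

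Of 7 comparable genes of the IL-2 axis, 4 were at least 2-fold higher and 1 lower at day +7, against 7.42% and 7.22% of all genes. At day +14, 2 were higher, against 15.7%, and the medians were 1.09 and 0.69. Socs2 and Socs3, which encode suppressors of cytokine signalling, were at 97.8 and 13.9 CPM and at 58.7 and 15.2 CPM at day +7, and at 98.7 and 6.55 CPM and at 65.8 and 12.1 CPM at day +14. Cish, a STAT5 target of the same family, was at 137 and 37.3 CPM and then at 54.8 and 33.5 CPM, with the interval of the day +14 ratio including 0. Il2 had 0 UMIs in Foxp3+ CD4 cells on both days, under the limits just given, against 6.53 and 7.74 CPM in Foxp3-negative CD4 cells.

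Of 9 comparable regulators of Il10, 4 were at least 2-fold higher in Foxp3+ CD4 cells at day +7, against 7.42% of all genes, and 6 were higher and 1 lower at day +14, against 15.7% and 13.8%, with medians of 0.70 and 1.34. Prdm1, which encodes Blimp-1, was at 53.8 and 13.7 CPM at day +7 and at 110 and 35.5 CPM at day +14. Nfil3 was at 29.3 and 6.31 CPM and at 43.8 and 16.7 CPM, with the interval of the day +14 ratio, which rests on 4 UMIs, including 0. Ahr was at 48.9 and 18.7 CPM at day +7 and had 1 UMI in Foxp3+ CD4 cells at day +14 against 15 UMIs in Foxp3-negative CD4 cells. Eomes, a T-box factor of cytotoxic cells, had 0 UMIs in Foxp3+ CD4 cells on both days against 40 and 284 UMIs in Foxp3-negative CD4 cells, and the log2 ratio was resolved below 0 only at day +14, with an upper limit of -0.47.

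Of 6 TGF-beta genes, 1 was at least 2-fold higher and 1 lower at day +7, against 7.42% and 7.22% of all genes, and 2 were higher at day +14, against 15.7%, with medians of 0.31 and 0.77. Counts this small do not set the list apart from all genes. Smad7, an inhibitor of the pathway, was at 112 and 31.6 CPM and at 98.7 and 64.7 CPM, with the interval of the day +14 ratio including 0. Tgfb1 was at 147 and 111 CPM and at 153 and 109 CPM, Furin at 73.4 and 62.7 CPM and at 76.7 and 39.3 CPM, and Tgfbr1 at 19.6 and 9.89 CPM and at 32.9 and 7.34 CPM, with intervals that include 0 for these 3 genes on both days. Only 2 and 3 of 8 helper lineage genes could be compared, with Tbx21 at least 2-fold lower at day +7 and Ifng at least 2-fold higher at day +14. Cxcr5, Bcl6 and Il4 had 0 UMIs in Foxp3+ CD4 cells on both days, and Il21 had 0 UMIs and 1 UMI, all within what these few cells allow.

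The genes whose pattern was most like that of Foxp3 were ranked by the smaller of the 2 daily log2 ratios of Foxp3+ over Foxp3-negative cells. Among 648 genes with at least 20 UMIs in Foxp3+ CD4 cells on each day, the 10 highest were Igkc, Klrg1, Tnfrsf9, Ctla4, Cd74, Tnfrsf4, Ighm, Arl5a, Ccnd2 and Tnfrsf18, with values from 3.80 down to 2.02. Igkc, an immunoglobulin light chain gene, owed its place to single cells, since 1 cell held 16 of its 20 UMIs at day +7 and 1 cell held 1034 of 1047 at day +14. The 5 genes of a B and plasma cell list summed to 9.78 and 428 CPM in Foxp3+ CD4 cells and to 4.84 and 1.59 CPM in Foxp3-negative CD4 cells, with 1 and 3 of the genes detected in Foxp3+ CD4 cells. Among 3467 genes in CD8 cells, the 10 highest were Tnfrsf4, Ctla4, Izumo1r, Maf, Iigp1, Ighm, Isg20, Cd81, Tnfrsf18 and Cd74, with values from 2.85 down to 1.37. Tnfrsf4, Ctla4, Tnfrsf18, Ighm and Cd74 were in both rankings. For Cd74, 1 cell held 65 of the 148 UMIs of Foxp3+ CD8 cells at day +7. The level was 64.6 CPM with that cell and 36.5 CPM without it. For Ighm, 1 cell held 20 of the 51 UMIs of Foxp3+ CD4 cells at day +14. The rankings were not repeated without these cells.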

How the data were processed

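The authors made the deposited counts with Cell Ranger 6.1.2 on mm10, as the submitters' processing notes list, and the values are whole UMI counts per gene and barcode, without normalization. The limits on detected genes and on mitochondrial UMIs per barcode are those of the study. The study also left out cells over its Scrublet threshold, a step not applied to the main values here. Classes were set from Foxp3, Cd4, Cd8a and Cd8b1 UMIs, with non-T barcodes set aside at 10 or more lineage UMIs (5 for the B and plasma list) and at most 2 Cd3 UMIs. UMIs were summed per class and expressed as CPM. Intervals at 95% were exact Poisson, Clopper-Pearson or conditional binomial, and the limit for a count of 0 was 3 counts. Calls across all genes used log2(CPM + 1), a mean of at least 10 CPM and 2-fold. Thinning drew 4000 UMIs per cell with a fixed seed. Python 3.11.15, numpy 2.4.6, scipy 1.17.1, pandas 2.3.3, scanpy 1.11.5, anndata 0.12.19 and matplotlib 3.10.9 were used, and the calculations were tested on simulated data.

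The 8 genes and all lists were chosen with earlier results of these data known. Named genes of a list are the 4 with the largest ratio of the same sign on both days and at least 10 UMIs per day. Alternatives covered the Foxp3 threshold, filters, thinning, doublets, scaling and aggregation. Those on a 50 CPM filter, on 3 or more Cd8 UMIs, on single cells and on further lineage genes, and the Foxp3+ CD8 comparison itself, were chosen after seeing the data.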

Additional observations from a re-analysis of the deposited data

Results flagged for a closer look

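The barcodes that were left out carried more of some genes than the kept ones. At day +14, Ikzf2 was at 195 CPM (83 UMIs) in the 249 barcodes left out and at 86.6 CPM in the kept barcodes. The 115 barcodes left out for over 15% mitochondrial UMIs held 65 of these UMIs, at 286 CPM. Nrp1 was at 63.4 CPM (27 UMIs) in the barcodes left out at day +14 and at 36.1 CPM in the kept ones, and 22 of the UMIs were in barcodes over 15% mitochondrial UMIs. At day +7 the 176 barcodes left out had 26.3 CPM of Ikzf2 and 18.4 CPM of Nrp1, from 10 and 7 UMIs.

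Nrp1 had a log2 ratio of day +14 over day +7 of 0.28 in Foxp3-negative CD4 cells and -0.12 in Foxp3-negative CD8 cells, which differ in sign. The difference between the classes was not tested, and the CD8 value had no fixed sign, at 0.06 with the mean of per-cell CPM and 0.07 after thinning to 2000 UMIs.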

How the results depend on the processing

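No paired analysis was possible because each day is a single library. The share of Foxp3+ barcodes depended on the threshold and on depth. It was 1.85% at day +7 and 0.667% at day +14 with at least 2 Foxp3 UMIs, 1.66% and 0.718% after thinning to 4000 UMIs, and 1.15% and 0.356% after thinning to 2000 UMIs. After thinning to 2000 UMIs, 3 genes of the set at day +7 and 2 at day +14 were at least 2-fold higher in Foxp3+ than in Foxp3-negative CD4 cells. Of all genes, 26.7% and 24.2% were. With a 50 CPM filter, 2 genes of the set were on each day, where 3.92% and 10.7% of all genes were. That filter also left 1 gene of the set past 2-fold between days over all kept barcodes, where 2.58% of all genes were. Thinning turned the direction of sparse genes, on the log2(CPM + 1) scale. Ikzf4 in Foxp3+ against Foxp3-negative CD4 cells was at -2.01 (4000 UMIs) and -1.83 (2000 UMIs) at day +7 and -3.02 (2000 UMIs) at day +14. Il10 was at -3.22 (2000 UMIs) in CD4 cells at day +14 and at -0.54 (4000 UMIs) and -0.73 (2000 UMIs) in CD8 cells, where Ikzf4 was at -2.96 (2000 UMIs). Thinning leaves fewer UMIs and fewer Foxp3+ cells by construction. Of 24 ratios past 2-fold that reached 10 CPM, with 248 alternatives in all, these 7 values were the ones that changed sign. The day ratio of Ikzf2 in Foxp3-negative CD4 cells ranged from 0.61 to 1.15 and that of Il2ra from -1.42 to -0.34. Nrp1 between days had no fixed direction, with -0.17 over all kept barcodes under median ratio scaling and 0.06 in Foxp3-negative CD8 cells with the mean of per-cell CPM. The counts of 20 and 14 Foxp3+ CD4 cells limit Ikzf4, Il10, Nrp1, Lrrc32 and Gpr83 there.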
